A study of Mus musculus with 2 samples.

Results

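Tropomyosins, tropomodulins and leiomodins lie along the actin filament of the sarcomere or control its pointed end, the end that faces the middle of the sarcomere. The 8 genes described are Tpm1, Tpm2, Tpm3, Tpm4, Tmod1, Tmod4, Lmod2 and Lmod3. They were found by gene symbol among the 55536 named genes of the deposited gene tables, and their 58 annotated transcripts were read from the transcript tables. The data were total RNA-seq of gastrocnemius, the large calf muscle, from 36-day-old female mice of strain B6CASTF1/J, the F1 hybrid that the labels also call B6Cast. There was 1 group of 2 libraries, numbered replicate 2 and replicate 1 in the labels, each made from 300 ng of RNA with ERCC spike-in RNA. The labels name no genetic change, treatment or second condition. They number the libraries as biological replicates from separate biosamples but give both the same donor identifier, so the spread between them may not be the spread between animals. With no second condition nothing was tested, and each comparison describes these 2 libraries.

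Tropomyosin is a coiled coil that winds along the actin filament and, with the troponin complex, covers or opens the places where myosin binds. Tropomyosin genes can make long and short forms from separate promoters and swap internal and last exons, and striated muscle uses its own combination. Tropomodulins cap the pointed end of the thin filament together with tropomyosin, while leiomodins, their relatives, help filaments to start and to lengthen. Tpm1 and Tpm2 encode the alpha and beta chains of striated muscle, and the long form of Tpm3 encodes the chain known from slow fibres.

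The bases that separate these RNAs lie in alternative exons, which are shown first. They were read from GENCODE M21 transcripts, with coordinates in mm10. The long form of Tpm3 opens with a coding exon called 1a and the short form with exon 1b. The short-form exon is shown because it tells the 2 kinds of Tpm3 RNA apart, and the forms differed unequally between the libraries. Exon 1b lies at chr3:90079732-90079863 on the plus strand and holds 132 coding bases. Tpm4 opens with an exon of the same coding length (chr8:72135322-72135453, plus strand). Capitals mark the 40 positions at which these exons differ, with 69.7% of bases identical.
Tpm3 exon 1b: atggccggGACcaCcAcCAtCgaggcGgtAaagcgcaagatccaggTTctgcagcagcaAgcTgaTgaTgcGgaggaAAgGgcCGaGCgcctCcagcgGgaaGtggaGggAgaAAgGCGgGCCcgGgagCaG
Tpm4 exon 1b: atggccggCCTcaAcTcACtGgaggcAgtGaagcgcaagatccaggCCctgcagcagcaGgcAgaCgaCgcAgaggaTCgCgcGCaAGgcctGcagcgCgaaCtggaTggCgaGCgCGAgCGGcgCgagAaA
Tpm2 splices in either exon 6b (chr4:43518644-43518719) or exon 6a (chr4:43519003-43519078), each of 76 bases on the minus strand. Its coding sequence ends in either exon 9a (chr4:43515924-43516003) or exon 9d (chr4:43514782-43514861), each with 80 coding bases on the minus strand. They are shown because the deposited quantifications divided Tpm2 differently between them. Capitals mark the positions that differ within each pair, 35 in exon 6 and 47 in exon 9.
Tpm2 exon 6b: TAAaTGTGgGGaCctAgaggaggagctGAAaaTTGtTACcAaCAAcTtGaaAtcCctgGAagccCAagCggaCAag
Tpm2 exon 6a: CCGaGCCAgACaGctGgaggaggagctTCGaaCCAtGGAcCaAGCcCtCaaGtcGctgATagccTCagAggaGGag
Tpm2 exon 9a: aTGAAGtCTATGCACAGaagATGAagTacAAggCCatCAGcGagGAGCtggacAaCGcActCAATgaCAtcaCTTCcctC
Tpm2 exon 9d: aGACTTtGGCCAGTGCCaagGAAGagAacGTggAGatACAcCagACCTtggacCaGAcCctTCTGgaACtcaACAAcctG
The exon 6 pair had 53.9% of bases identical and the exon 9 pair 41.2%.

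Over whole coding sequences the long tropomyosins were close to each other. Tpm1-205, Tpm2-202 and Tpm3-205 each had 852 coding bases, or 284 codons before the stop, and aligned without gaps. Tpm1-205 shared 80.4% of bases with Tpm3-205 and 78.5% with Tpm2-202, and Tpm2-202 shared 78.3% with Tpm3-205. The short coding sequences of Tpm3-201 and Tpm4-201 had 744 bases each, 71.5% of them identical. In global alignments the coding sequences of Tmod1 and Tmod4 (1077 and 1035 bases) were 62.8% identical and those of Lmod2 and Lmod3 (1650 and 1713 bases) were 60.4% identical over the aligned columns.

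RefSeq promoter windows (GRCm38.p6, 250 bases before to 50 after a start) were held for 7 of the 8 genes, with 8 windows because Tpm3 had 2. Lmod3 is named only. Motifs known from muscle promoters were searched on both strands: the E-box CANNTG with its form CAGCTG, MCAT as CATTCC, the CArG box and the MEF2 site. An E-box was found in 7 of the 8 windows, against 72.3% of all 32851 RefSeq windows. The form CAGCTG, which is also counted as an E-box, was found in 4 of the 8 windows, those of Tpm2, Tpm4, Lmod2 and the long-form start of Tpm3, against 16.3% of all windows. MCAT was found in 2 of the 8, Tpm1 and Tmod1, against 14.7% of all windows. The CArG box and the MEF2 site were found in 0 of the 8 windows, against 1.63% and 3.19% of all windows. The windows of Tpm3, Lmod2 and Tpm2 are shown because these 3 genes were more than 2-fold apart between the libraries, and both starts of Tpm3 are given. Capitals mark E-boxes, the only motif found in these 4 windows.
Tpm3 long-form start, chr3:90072401-90072700, plus strand: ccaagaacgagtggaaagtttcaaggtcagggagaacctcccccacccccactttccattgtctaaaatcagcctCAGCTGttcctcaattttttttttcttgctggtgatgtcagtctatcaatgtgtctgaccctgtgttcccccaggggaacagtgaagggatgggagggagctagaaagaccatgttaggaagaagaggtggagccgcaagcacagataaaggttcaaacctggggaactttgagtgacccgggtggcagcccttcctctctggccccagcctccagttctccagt
Tpm3 short-form start, chr3:90079271-90079570, plus strand: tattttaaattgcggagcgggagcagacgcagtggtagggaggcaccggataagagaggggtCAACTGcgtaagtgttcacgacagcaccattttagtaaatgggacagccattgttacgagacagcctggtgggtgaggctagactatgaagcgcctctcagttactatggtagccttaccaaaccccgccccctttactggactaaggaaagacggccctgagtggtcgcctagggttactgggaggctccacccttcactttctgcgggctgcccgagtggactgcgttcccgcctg
Lmod2, chr6:24597521-24597820, plus strand: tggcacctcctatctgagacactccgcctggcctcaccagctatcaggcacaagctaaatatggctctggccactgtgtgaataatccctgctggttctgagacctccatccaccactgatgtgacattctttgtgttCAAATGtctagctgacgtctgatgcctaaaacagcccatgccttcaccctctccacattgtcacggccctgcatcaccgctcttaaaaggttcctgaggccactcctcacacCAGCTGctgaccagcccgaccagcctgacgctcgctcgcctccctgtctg
Tpm2, chr4:43523505-43523804, minus strand: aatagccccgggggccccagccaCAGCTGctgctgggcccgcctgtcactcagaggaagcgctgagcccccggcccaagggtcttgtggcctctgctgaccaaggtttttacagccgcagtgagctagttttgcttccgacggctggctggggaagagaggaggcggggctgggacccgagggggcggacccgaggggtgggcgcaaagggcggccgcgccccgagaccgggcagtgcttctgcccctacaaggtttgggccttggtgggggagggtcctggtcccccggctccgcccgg
With the start base counted as 0, CAGCTG opened at -175 in the long-form window of Tpm3, at 0 in Lmod2 and at -227 in Tpm2. The short-form window of Tpm3 held an E-box of another form, CAACTG, at -188. These matches describe letters and say nothing of binding.

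The gene tables held 40656175 counts in replicate 2 and 37735687 counts in replicate 1, and the 8 genes made up 1.28% and 1.43% of them. Mitochondrial RNA made up 17.5% of the counts of replicate 2 and 9.39% of those of replicate 1, and spike-ins 0.479% and 0.646%. The muscle label was checked against marker lists. All 8 fast-fibre genes were above 1 TPM (transcripts per 1e6, a level per transcript length) in both libraries and summed to 63047 TPM in replicate 2 against 83742 TPM in replicate 1. The 7 slow-fibre genes summed to 2612 TPM in replicate 2 against 15.1 TPM in replicate 1, so the libraries stood apart in fibre-type RNA. In tissue RNA, fewer cells of a type and less RNA per cell cannot be told apart.

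Tpm1 and then Tpm2 were the most abundant of the 8 genes in both libraries and both tables. On the TPM scale Tpm1 (chr9:67022590-67049406, minus strand) had 10307 TPM in replicate 2 against 13994 TPM in replicate 1 (mean 12150 ± 2607, SD, n = 2). It ranked 6 and 7 among 21938 nuclear protein-coding genes. Both libraries were high, and replicate 1 was the higher. Tpm2 (chr4:43514711-43523765, minus strand) had 2968 TPM in replicate 2 against 1290 TPM in replicate 1, at ranks 17 and 26. Here the order was turned round, with replicate 2 the higher.

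Tpm3 (chr3:90072649-90100902, plus strand) had 312.8 TPM in replicate 2 against 8.36 TPM in replicate 1, which put it at rank 139 in replicate 2 and rank 4531 in replicate 1. Its estimated counts were 10644 in replicate 2 and 398.0 in replicate 1, with posterior SDs of 11.7 and 10.8 counts from the authors' quantification. Replicate 1 was thus far below replicate 2. Tpm4 (chr8:72134975-72153142, plus strand), best known from non-muscle cells, had 11.0 TPM in replicate 2 against 11.4 TPM in replicate 1, a near equal level. Tpm4 stood far below Tpm3 in replicate 2. In replicate 1 their order depended on the table, since Tpm3 and Tpm4 had 16.6 and 16.4 TPM there in the reads-based table.

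**Figure D1:**
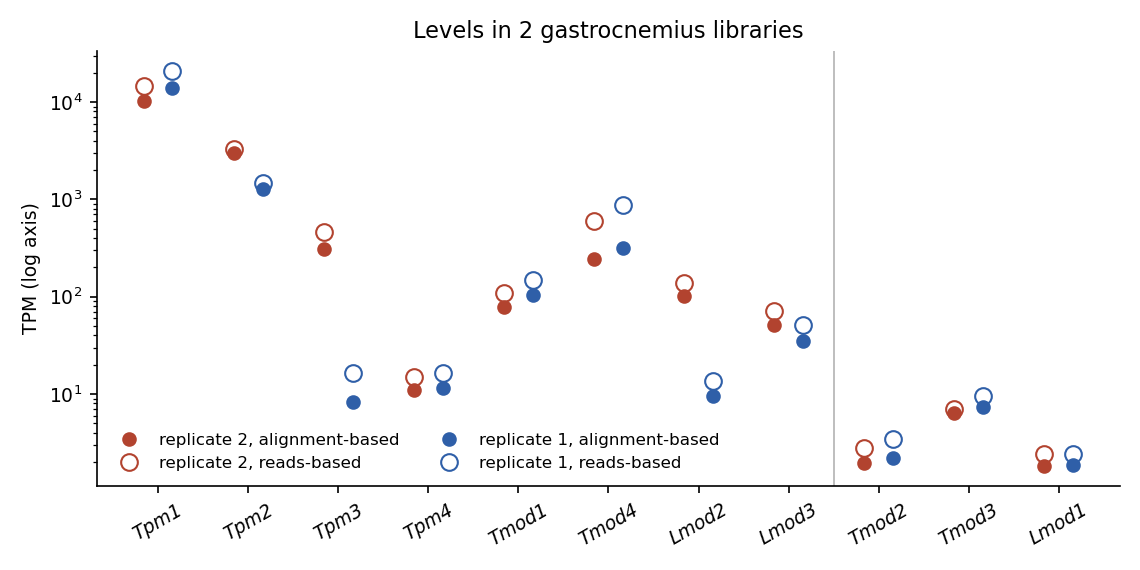
TPM on a log axis for the 8 genes and, right of the line, the relatives Tmod2, Tmod3 and Lmod1; filled circles are the alignment-based and open circles the reads-based quantification, with replicate 2 left of replicate 1. Tpm3 and Lmod2 show the wide gaps between libraries, at 312.8 against 8.36 TPM and 101.8 against 9.54 TPM, while Tpm4, Tmod1 and Tmod4 lie close together.

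As shares of the summed tropomyosin TPM, Tpm1 held 75.8% in replicate 2 against 91.4% in replicate 1. Tpm2 held 21.8% in replicate 2 against 8.43% in replicate 1. Tpm3 held 2.30% in replicate 2 against 0.0546% in replicate 1. The make-up of the family thus differed between the libraries, while its sum differed less, at 13598 TPM in replicate 2 against 15304 TPM in replicate 1. Set against the sarcomeric actins Acta1 and Actc1, summed tropomyosin TPM came to 0.622 in replicate 2 and 0.553 in replicate 1, and in the reads-based table to 0.399 and 0.375.

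**Figure D2:**
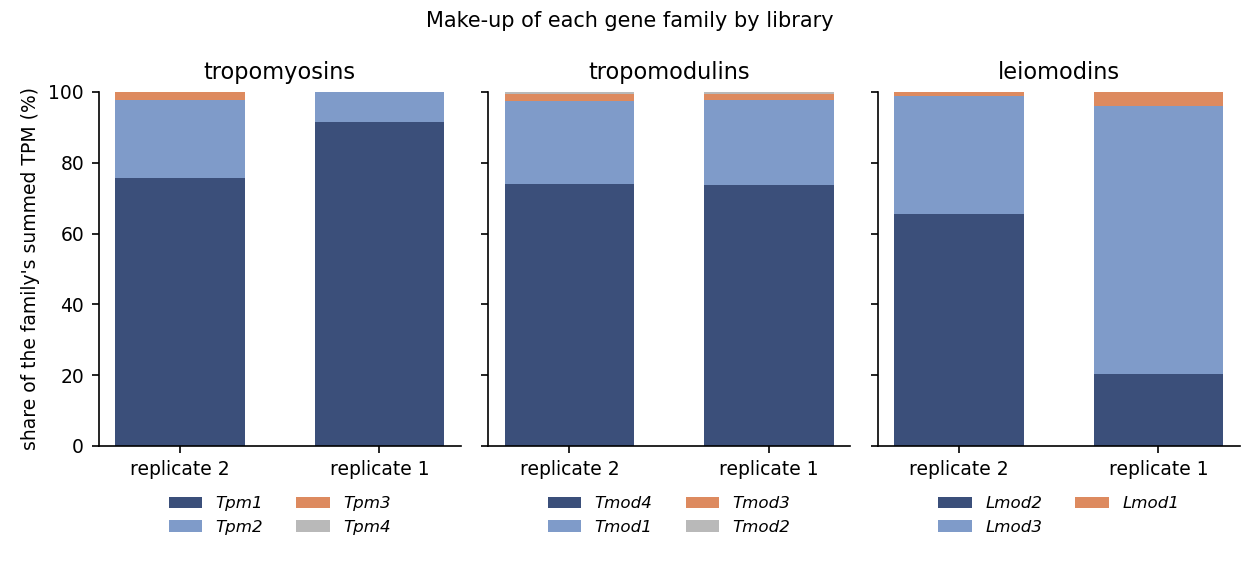
Stacked bars of each gene's share (%) of the summed TPM of its family, replicate 2 left of replicate 1, for tropomyosins, tropomodulins and leiomodins. The tropomodulin bars are nearly alike (Tmod4 73.9% and 73.7%), whereas Lmod2 takes 65.5% of leiomodin TPM in replicate 2 against 20.4% in replicate 1.

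The difference in Tpm3 lay mostly in its long form. Tpm3-205, which opens with exon 1a, had 298.9 TPM in replicate 2 against 0.86 TPM in replicate 1, from 10023 and 27 estimated counts. Scaled by edgeR's TMM factors, which set typical genes equal between libraries, its counts were 354-fold higher in replicate 2, with an exact 95% counting interval of 243 to 538. Intervals of this kind cover counting error only. The reads-based table, with 8589 and 36 counts, gave 228-fold at the same scaling (interval 164 to 325). Tpm3-201, a short form that opens with exon 1b, had 4.08 TPM in replicate 2 against 3.77 TPM in replicate 1. Tpm3-202, the other named short form, had 2.30 TPM in replicate 2 against 1.38 TPM in replicate 1. The named short forms thus lay between 1.38 and 4.08 TPM in both libraries.

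Of the TPM of transcripts with exon 1a or exon 1b, exon 1a held 97.9% in replicate 2 against 14.3% in replicate 1. In the reads-based quantification, made without a prior alignment, the shares were 97.5% in replicate 2 against 18.0% in replicate 1. Tpm3-201 and Tpm3-202 had count ratios of 1.09 (counting interval 0.916 to 1.30) and 1.68 (1.29 to 2.21), replicate 2 over replicate 1. Transcripts with exon 6b and exon 9a, the muscle choices, held 98.7% of the TPM shared with exons 6a and 9d in replicate 2, against 37.3% in replicate 1. The other Tpm3 transcripts that reached the 5% share used for naming were Tpm3-209 and Tpm3-214. Tpm3-209, a retained-intron transcript, had 0.24 TPM in replicate 2 against 1.23 TPM in replicate 1, from only 2.04 and 9.72 estimated counts. Tpm3-214 had 0 estimated counts in both libraries in the alignment-based table. In the reads-based table it had 233 counts and 59.9 TPM in replicate 2, against 11 counts and 3.26 TPM in replicate 1. There it held 12.9% of Tpm3 TPM in replicate 2 and 19.7% in replicate 1. The shares of exon 1a and exon 1b leave it out. The gene Tpm3-rs7, by its name a sequence related to Tpm3, had 155.6 counts in replicate 2 and 98.0 counts in replicate 1. Whether Tpm3 reads were assigned to Tpm3-rs7 was not tested. The level of Tpm3 in replicate 1, at 398.0 counts, may thus be uncertain beyond its posterior SD of 10.8 counts.

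**Figure D3:**
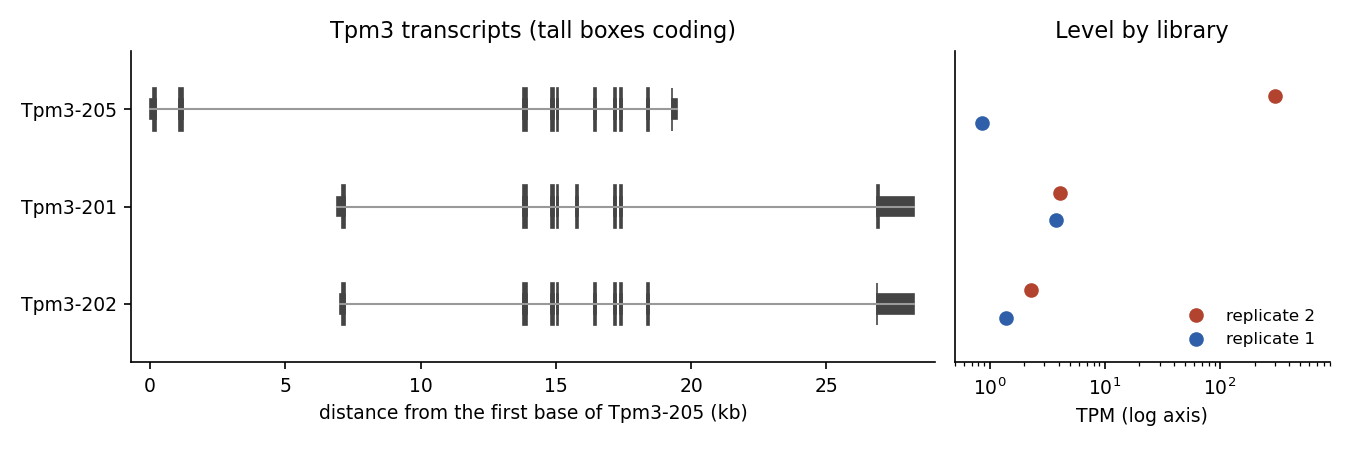
Left, exons of 3 Tpm3 transcripts by distance (kb) from the first base of Tpm3-205, tall boxes coding; right, their TPM on a log axis, replicate 2 drawn above replicate 1. Tpm3-205, with the upstream start, lies at 298.9 and 0.86 TPM, and the transcripts with the downstream start lie between 1.38 and 4.08 TPM in both libraries.

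Tpm1 RNA was nearly all of the striated-muscle form in the alignment-based table. Tpm1-205, with exons 1a, 6b and 9a, held 97.5% of Tpm1 TPM in replicate 2 against 97.0% in replicate 1. In the reads-based table it held 76.3% in replicate 2 against 74.6% in replicate 1. There Tpm1-216, which ends its coding sequence in exon 9d, held 15.3% and 15.9%, and Tpm1-203, with exon 6a, held 6.25% and 7.22%. The libraries were alike within each table, and the tables differed from each other by more than the libraries did. Of transcripts with exon 6b (chr9:67031951-67032026) or exon 6a (chr9:67032466-67032541), those with 6b held 99.5% of TPM in replicate 2 against 99.4% in replicate 1 by alignment, and 93.7% and 92.7% by reads. The other 18 Tpm1 transcripts together held 2.05% of TPM in the mean of the libraries.

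On the TPM scale, Tpm2 RNA was split over more transcripts. Tpm2-202, with exons 6b and 9a, held 46.4% of Tpm2 TPM in replicate 2 against 42.6% in replicate 1. Tpm2-203, with exons 6a and 9d, the pair known from smooth muscle and fibroblasts, held 16.9% in replicate 2 against 15.9% in replicate 1. Tpm2-206 held 21.8% and 22.9%, and the non-coding Tpm2-204 14.7% and 18.3%, and both are short, at 401 and 337 bases. By counts, which do not correct for length, Tpm2-202 had 88771 of the gene's 115947 in replicate 2 and 33562 of 44812 in replicate 1. The short Tpm2-206 had 6307 and 2728 counts, and the short Tpm2-204 had 3339 and 1719. In the reads-based table Tpm2-203 rather than these short transcripts held the remainder, with 42.8% in replicate 2 against 44.2% in replicate 1. Exons 6b and 9a, set against 6a and 9d, held 73.3% of TPM in replicate 2 against 72.9% in replicate 1 by alignment, and 56.0% and 54.0% by reads. Thus the splice choice was near equal in the libraries although the gene's level was not. Tpm2-202 counts were 2.52-fold higher in replicate 2 (counting interval 2.49 to 2.56) and Tpm2-203 counts 2.47-fold higher (2.40 to 2.54). Tpm4-201, a short form, held 100% of Tpm4 TPM in both libraries and both tables.

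Tmod4, the tropomodulin typical of skeletal muscle, exceeded Tmod1 in both libraries. Tmod4 (chr3:95124476-95129209, plus strand) had 244.1 TPM in replicate 2 against 318.4 TPM in replicate 1. Tmod1 (chr4:46038935-46116032, plus strand), which also caps filaments in heart and in the red blood cell membrane skeleton, had 78.1 TPM in replicate 2 against 103.9 TPM in replicate 1. Replicate 1 was the higher for both genes on the TPM scale. The relatives Tmod2, known from neurons, and Tmod3, widely expressed, had 1.95 and 6.36 TPM in replicate 2 and 2.19 and 7.42 TPM in replicate 1.

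Within the family, Tmod4 held 73.9% of summed TPM in replicate 2 against 73.7% in replicate 1, and Tmod1 held 23.6% and 24.1%. In the reads-based table Tmod4 had 599.9 TPM in replicate 2 against 885.9 TPM in replicate 1, above the alignment-based level in both libraries. The Tmod4 counts were closer, at 8790 and 10892 by alignment and 9127 and 11523 in the reads-based table. That table spread Tmod4 over 5 transcripts, led by Tmod4-204 with 36.5% and 37.5% of its TPM and the retained-intron Tmod4-206 with 24.6% and 27.3%. Tmod4-201, with 1035 coding bases, held 93.3% of Tmod4 TPM in replicate 2 against 92.1% in replicate 1 by alignment, but 15.1% and 8.94% by reads. Tmod4-202, which also has 1035 coding bases, held 11.1% in each library by reads, and Tmod4-203 held 12.8% and 15.1%. So the order Tmod4 over Tmod1 was the same in both tables, while the Tmod4 transcript make-up was not. Tmod1-201 held 96.3% of Tmod1 TPM in replicate 2 against 94.5% in replicate 1. Red blood cell markers, listed because Tmod1 is also made in that lineage, summed to 425 TPM in replicate 2 against 2445 TPM in replicate 1, with 0 of 6 higher in replicate 2, and their part in the Tmod1 level was not tested. Tmod1 overlaps Tstd2 on the opposite strand, which had 308 and 274 counts in replicate 2 and replicate 1. Whether counting used the strand is not given in the sources used here.

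**Figure D4:**
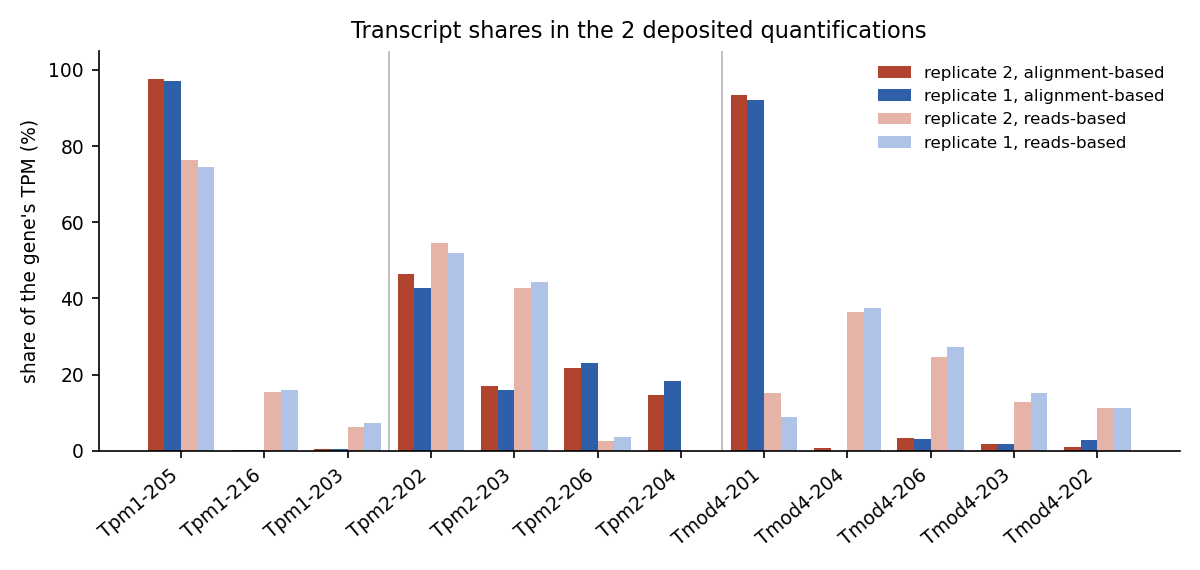
Share (%) of a gene's TPM held by each named transcript of Tpm1, Tpm2 and Tmod4; bars run replicate 2 then replicate 1 for the alignment-based table (dark) and the reads-based table (light). The libraries lie close to each other within each table, while Tmod4-201 holds 93.3% and 92.1% by alignment and 15.1% and 8.94% by reads.

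The leiomodins differed in kind between the libraries. Lmod2 (chr6:24597762-24605414, plus strand), best known as a heart leiomodin, had 101.8 TPM in replicate 2 against 9.54 TPM in replicate 1, at ranks 464 and 4104. Lmod3 (chr6:97238534-97252759, minus strand), whose loss in people causes nemaline myopathy, had 51.7 TPM in replicate 2 against 35.3 TPM in replicate 1. Lmod2 was thus above Lmod3 in replicate 2 and below it in replicate 1. The relative Lmod1, known from smooth muscle, had 1.82 TPM in replicate 2 against 1.85 TPM in replicate 1. Of summed leiomodin TPM, Lmod2 held 65.5% in replicate 2 against 20.4% in replicate 1, and Lmod3 held 33.3% and 75.6%. Both Lmod2 and Lmod3 have 1 annotated transcript, so no division among transcripts enters these values. Leiomodin TPM over tropomodulin TPM came to 0.470 in replicate 2 and 0.108 in replicate 1, and in the reads-based table to 0.295 and 0.0642.

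On the scale of TMM-scaled counts, 3 of the 8 genes were more than 2-fold higher in replicate 2, against 2.09% of the 9997 genes whose counts averaged 100 or more over the libraries. None of the 8 was more than 2-fold lower in replicate 2, against 1.21% of those genes, and 3.30% were that far apart in either direction. Tpm3 was 25.5-fold higher in replicate 2 (log2 ratio 4.67, counting interval 23.1 to 28.3), and 0.220% of the genes were farther apart. Lmod2, with 6161 counts in replicate 2 and 547 in replicate 1, was 10.8-fold higher (log2 ratio 3.43, interval 9.85 to 11.8), and 0.320% were farther apart. Tpm2, with 115947 and 44812 counts, was 2.47-fold higher (log2 ratio 1.30, interval 2.44 to 2.50), and 2.19% were farther apart. For comparison, the common biological coefficient of variation of the 2 libraries in edgeR was 0.220.

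The other 5 genes were within 2-fold. Lmod3, with 3530 counts in replicate 2 and 2280 in replicate 1, had a log2 ratio of 0.56, and 9.67% of the genes were farther apart. Tpm1 had a log2 ratio of -0.43, from 366930 counts in replicate 2 and 471440 in replicate 1. Tmod1 had -0.37, Tmod4 -0.38 and Tpm4 -0.04. Scaling by the spike-in total shifted the median over those 9997 genes to 0.38 (log2). It turned the sign for Tmod1 (0.02), Tmod4 (0.01) and Tpm4 (0.35), and the log2 ratio of Tpm1 became -0.04. The lower values of Tmod1 and Tmod4 in replicate 2 thus hold on the TMM and TPM scales and not on the spike-in scale. For Tpm4 the TMM fold was 0.972 (counting interval 0.875 to 1.08), which includes equal levels. With TPM taken over nuclear protein-coding genes only, Tpm4 had 27.1 in replicate 2 against 25.3 in replicate 1.

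**Figure D5:**
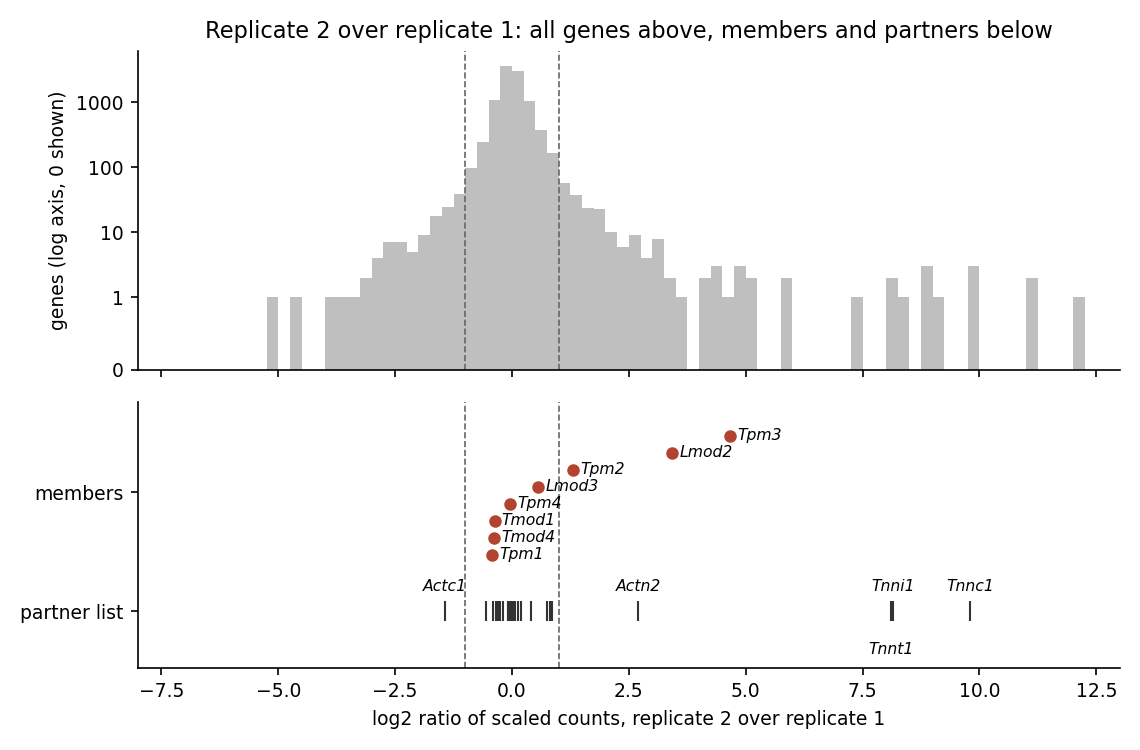
Above, number of genes (log axis with 0 shown) by log2 ratio of TMM-scaled counts, replicate 2 over replicate 1, for the 9997 genes whose counts averaged 100 or more; below, the 8 genes and 27 partner genes on the same axis, with dashed lines at 2-fold. Tpm3 (4.67), Lmod2 (3.43) and Tpm2 (1.30) lie right of the upper line with Actn2 and the slow troponins, and Actc1 (-1.44) lies left of the lower line.

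Partners on the thin filament gave a point of reference. A list of 27 genes held actins, troponins, nebulins, capping proteins, alpha-actinins, turnover factors, kelch proteins, formins and the 3 relatives. All but Nebl averaged 100 counts or more. Of the 27, 4 were more than 2-fold higher in replicate 2, against 2.09% of all 9997 genes, and 1 was more than 2-fold lower, against 1.21%. The median log2 ratio of the list was -0.07, against -0.01 over all 9997 genes. The 4 were the slow troponins Tnnt1, Tnni1 and Tnnc1 and the alpha-actinin Actn2, a Z-disc protein. Tnnt1, the tropomyosin-binding subunit of slow fibres, had 320.7 TPM in replicate 2 against 1.19 TPM in replicate 1. Tnni1, the inhibitory subunit, had 169.9 TPM in replicate 2 against 0.65 TPM in replicate 1. Tnnc1, the calcium-binding subunit, had 303.2 TPM in replicate 2 against 0.41 TPM in replicate 1. All 3 were thus near absent in replicate 1, with 31, 18 and 6 counts. Actn2 had 569.4 TPM in replicate 2 against 85.4 TPM in replicate 1. Actc1, the cardiac actin also made in young skeletal muscle, was the gene on the other side, with 456.9 TPM in replicate 2 against 1251 TPM in replicate 1.

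The fast troponins were closer. Their log2 ratios were -0.41 for Tnnt3, -0.27 for Tnni2 and -0.25 for Tnnc2, of which those of Tnni2 and Tnnc2 change sign when scaled by the spike-ins. By distance in log2 ratio over the 2 libraries, the list genes nearest to Tpm3 were Actn2 (2.70), Tnnt1 (8.11) and Tnni1 (8.14). None was close, at distances of 1.97, 3.43 and 3.47 from the gene's 4.67, which pools its long and short forms. Tpm3-205 alone had a log2 ratio of 8.44. The list genes nearest to Lmod2 were Actn2, Nebl (0.85) and Nrap (0.81), at distances of 0.72, 2.57 and 2.61. Nearest to Tpm2 were Nebl, Nrap and Kbtbd13 (0.75). Nebl rested on 42 counts in replicate 2 and 22 in replicate 1. A likeness over 2 libraries is 1 number per gene and describes only these libraries.

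Slow-fibre markers differed between the libraries by more than most fast-fibre markers did. All 7 slow-fibre markers were higher in replicate 2, and 2 of the 7 reached 1 TPM in replicate 1; Tnnt1, Tnni1 and Tnnc1 are on both this list and the partner list. Myh7, the slow myosin heavy chain, had 472.0 TPM in replicate 2 against 0.24 TPM in replicate 1. On the TPM scale, Myh1 and Myh2 were the 2 of 8 fast markers that were higher in replicate 2, at 1224 and 727.7 TPM against 131.8 and 146.9 TPM in replicate 1. Myh4, the fastest myosin, had 10377 TPM in replicate 2 against 15369 TPM in replicate 1. The part of these markers in the Tpm3, Lmod2 and Tpm2 values was not tested.

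Heart markers were examined because Lmod2 and Tmod1 are made in heart. Their sum was 100.5 TPM in replicate 2 against 6.10 TPM in replicate 1, of which Myh6 gave 96.6 and 0.17 TPM, with 4 of 7 higher in replicate 2. The reads-based table gave Myh6 50.1 TPM in replicate 2 against 0.106 TPM in replicate 1. Posterior SDs of the Myh6 counts, 31.6 and 0.78, equalled those of the slow-fibre marker Myh7. Whether reads were divided between these genes was not tested. Myl7 had 0 counts in both libraries, and Nppa, Tnni3 and Mybpc3 had at most 0.25 TPM in replicate 2 and 0 in replicate 1. The 2 heart markers above 1 TPM in both libraries, Tnnt2 and Myl4, were lower in replicate 2 on the TPM scale. They had 1.15 and 2.50 TPM in replicate 2 against 2.42 and 3.51 TPM in replicate 1. Smooth-muscle markers, a lineage that also makes Tpm1 and Tpm2, summed to 822 TPM in replicate 2 against 842 TPM in replicate 1, with 0 of 6 higher in replicate 2 on the TPM scale, and Des, which skeletal muscle also makes, gave 763.7 and 764.5 TPM of these sums. Fibroblast markers summed to 665 TPM in replicate 2 against 644 TPM in replicate 1, with 2 of 5 higher in replicate 2. Endothelial markers summed to 41.6 TPM in replicate 2 against 35.5 TPM in replicate 1, with 4 of 4 higher in replicate 2. These tallies are of TPM. With the spike-in total they became 5 of 8 for fast fibres, 3 of 6 for smooth muscle, 6 of 7 for heart and 5 of 5 for fibroblasts, while those for slow fibres, red blood cells and endothelium were the same. That heart tally includes Myl7, whose positive ratio came only from the prior count of 0.5 on 0 counts, so Myl7 was not higher. It also includes Nppa and Mybpc3, with 1 count each in replicate 2, and Tnni3, with 5. With TMM, 1 of 6 smooth-muscle markers was higher.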

How the data were processed

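Values came from 2 libraries of 1 group. The authors deposited, per library, a gene table and a transcript table derived from an alignment to the transcriptome, and a transcript table made directly from reads, all on mm10 with GENCODE M21, per the file headers and deposited descriptions. The program used is not given in the sources used here. The tables hold expected counts (estimated reads per feature, so not always whole), TPM (transcripts per 1e6, corrected for length), the percent of a gene's TPM held by each transcript, and, as scores, a posterior SD and interval bounds, all computed by the authors before they were deposited. TPM is a share of all RNA in a library, and the 7SL genes held 27.7% of it in replicate 2 and 34.0% in replicate 1. Reads-based values were summed per gene here.

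Expected counts were rounded to whole numbers and scaled with TMM in edgeR 4.0.16 (R 4.3.3) over genes and spike-ins, leaving out 26248 tRNA rows, with a prior count of 0.5. DESeq2 1.42.0 size factors were an alternative. Ratios carry exact Clopper-Pearson counting intervals (95%), which cover counting error only. The libraries were compared without a test, since there is 1 group. The ratio step was checked on simulated data with known folds. Coding sequences were compared with biopython 1.88 in place of proteins, which were planned. The members and lists were chosen with earlier results of these data known. Named were all members, their 3 relatives, troponins, partner genes past 2-fold, the 3 partners nearest to each member past 2-fold, and transcripts with at least 5% of a gene's TPM in either table. Alternatives were another quantification, TPM denominator, unit, scaling, prior count, fold, filter on low counts, and leaving out a library.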

Additional observations from a re-analysis of the deposited data

How the results depend on the processing

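None of the 3 genes past 2-fold (Tpm2, Tpm3 and Lmod2) changed direction under DESeq2 size factors, the spike-in total, the ratio of TPM, the reads-based table or a prior count of 5, and these 3 were past 2-fold under each, with Tpm3 and Lmod2 also past 4-fold. The log2 ratio of Tpm3 ran between 4.31 (reads-based) and 5.22 (TPM). The partner list had 5 genes past 2-fold, and 8 with the spike-in total, which added Nebl, Nrap and Kbtbd13. The share of Tmod4 among tropomodulins, 73.8% in the mean, was 84.0% in the reads-based table, 51.7% by counts, which do not correct for length, and 73.5% by posterior mean TPM. In the reads-based table the mean share of its gene was 75.4% for Tpm1-205 (97.3% by alignment), 53.2% for Tpm2-202 (44.5%), 97.5% for Tmod1-201 (95.4%) and 12.0% for Tmod4-201 (92.7%); the cause was not tested. Leaving out each library gave 75.8% to 91.4% for Tpm1, 8.43% to 21.8% for Tpm2 and 0.0546% to 2.30% for Tpm3 among tropomyosins, 73.7% to 73.9% for Tmod4 and 20.4% to 65.5% for Lmod2. Of genes averaging 100 counts or more, 330 were past 2-fold, 585 with the spike-in total and 97 past 4-fold; averaging 10 or more there were 1159 of 15007, and with no filter 6705 of 23857. Among the other alternatives for levels and ratios of single genes, those that leave out a library not counted, 27 of 56 values moved by more than the spread between the libraries or the counting interval. Levels depended strongly on the library for Tpm3, whose mean of 160.6 TPM stands for 312.8 TPM (replicate 2) and 8.36 TPM (replicate 1), and Lmod2, whose mean of 55.7 TPM stands for 101.8 and 9.54 TPM. Chosen after seeing the data were the reads-based fold of Tpm3-205 and tropomyosin-to-actin ratio (0.387 in the mean, against 0.588 by alignment) and the scales of the marker tallies. With 2 libraries, no difference can be told from the spread between animals, and Tpm3-205 in replicate 1 rests on 27 counts. No paired analysis was possible because there is 1 group.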
